A study of Bos taurus with 4 samples.

Results

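Adult steers were set against adult heifers in the subcutaneous fat of Qinchuan cattle, and what separated the 2 libraries outside sterol synthesis was described by function. ATAH was fat of heifers, which are young females, and ATAS was fat of steers, which are castrated males. Both groups were 18 to 24 months old by the sample labels, and fat of 5 animals went into the single library of each group. The 2 libraries were chosen by their labels from the 4 of the series, and the fetal library was not used. ATAB, fat of adult bulls of the same age range, was read only as the level of a gene in the third adult library. The steers differed from the heifers in sex and in castration, which cannot be told apart in this pair. With 5 animals in each pool and 1 pool per group, the spread between animals was not measured, so a test on the reads compares 2 libraries and not the conditions.

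Fat cells fill with triglyceride. In cattle the carbon for new fatty acids comes mainly from acetate, which the enzyme ACSS2 activates to acetyl-CoA in the cytosol, and fatty acid synthase joins these units with electrons from NADPH. The fatty acids are then attached to glycerol by a chain of acyltransferases and stored in lipid droplets. Subcutaneous fat also holds a matrix of collagens and proteoglycans, vessels, nerves and resident immune cells, of which macrophages are known as the most common. Sex steroids act on fat, and castration removes the main source of androgens.

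Reads were counted on UniGene clusters, which gather the transcript sequences of a gene and are each represented by a single sequence, and levels are given in RPKM, reads scaled to the length of that sequence and to the reads counted in the library. To the nearest 1000, ATAH had 15591000 reads on 31883 clusters and ATAS had 15557000 reads on 31508 clusters. The median covered length of a cluster with reads was 72.1% in ATAH and 72.0% in ATAS. Of 34046 clusters with a read in either library, 1048 were called, 542 higher in ATAS and 506 lower, which is 3.08% of those tested. The balance turned with the scaling, to 453 higher and 590 lower with TMM and to 489 and 562 with DESeq2 size factors. Of the calls among unnamed expressed sequence tags 41.3% were higher in ATAS, against 62.1% among clusters with a symbol or a description. A call needed an adjusted p (false discovery rate, FDR) of 0.001 or less by an exact binomial test and a log2 ratio of at least 1 in size, and this test knows counting error only. When a spread between animals was assumed, with a biological coefficient of variation of 0.2, edgeR's exact test called 116 clusters, and with a coefficient of 0.4 it called 12, 5 higher and 7 lower. The genes of X inactivation and of the Y chromosome, 8 clusters of which 6 were called, are in these counts over all clusters but in no gene list and among no named genes, and without them 1042 clusters were called, 537 higher and 505 lower.

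Among the 12867 clusters with a gene symbol or a description, 2.47% were called higher in ATAS and 1.51% lower. Where 100 or more reads fell in 1 of the 2 libraries, the shares were 2.25% and 1.66% of 8593 clusters. These shares are the background for the gene lists below. List members are gene symbols, and of 5519 gene symbols 235 were called higher and 145 lower, which are larger shares. The excess of a list over the background is therefore smaller against gene symbols, some of which were read by hand and lean towards called clusters. The median log2 ratio was 0.02 over all clusters, 0.09 over clusters with a symbol or a description and 0.13 over gene symbols, the kind of cluster the lists hold. ACTB, the gene of beta-actin, had 1924 RPKM in ATAH and 1897 RPKM in ATAS. The plot of all gene symbols shows called genes at low and at high levels of expression, though a gene with very few reads could not be called.

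**Figure D1:**
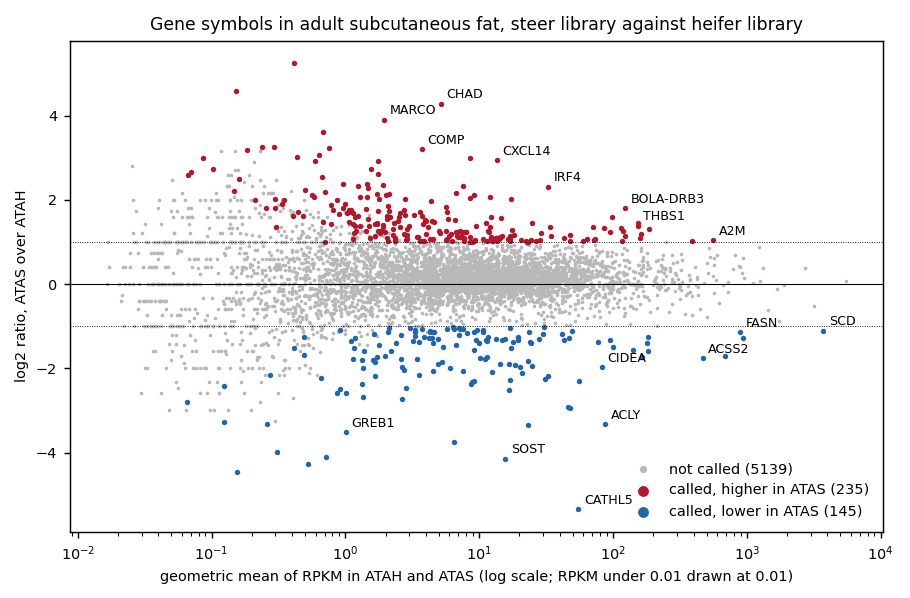
The log2 ratio of ATAS over ATAH of each gene symbol (vertical axis) is plotted against the geometric mean of its RPKM in both libraries (horizontal axis, log scale). Blue points are the 145 symbols called lower in ATAS and red points the 235 called higher, dotted lines mark a ratio of 1 and -1, and a count of 0 was read as 3 reads. Of the labelled genes CATHL5 and SOST lie lowest, and CHAD and MARCO highest.

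Among called clusters with a gene symbol and 100 reads or more in 1 library, the lowest ratio was that of CATHL5, a cathelicidin, which is an antimicrobial peptide. It had 352 RPKM in ATAH and 8.65 RPKM in ATAS, with 27.5 RPKM in ATAB, and was the single call left with the assumed coefficient of 0.4 among the 101 called genes that the naming rule chose. SOST, which encodes the Wnt inhibitor sclerostin, had 65.9 RPKM in ATAH and 3.72 RPKM in ATAS. PRUNE2 had 23.8 RPKM in ATAH and 1.76 RPKM in ATAS. GREB1, a gene known to be induced by estrogen, had 3.42 RPKM in ATAH, 0.298 RPKM in ATAS and 1.42 RPKM in ATAB. Its log2 ratio of ATAS over ATAH was -3.52 with a 95% interval of -4.15 to -2.95. Of the genes that were lower in ATAS, CP, the copper-carrying ferroxidase ceruloplasmin, had 2262 reads in ATAH and 392 in ATAS. ATP12A, a proton pump, had 361 and 54 reads, IRX1, a homeobox factor, 144 and 26, and TMEM182 115 and 22 reads in the same order. In ATAB, CP and IRX1 had 8.0 and 1.30 RPKM, near their 7.0 and 1.21 RPKM in ATAS. ATP12A and TMEM182 had 8.47 and 2.66 RPKM in ATAB, nearer their 6.80 and 3.05 RPKM in ATAH. TECTB, a tectorin known from the inner ear, had 102 and 17 reads, but its level of 11.1 RPKM in ATAB was above that of both other libraries.

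At the other end, CHAD, the cartilage matrix protein chondroadherin, had 1.17 RPKM in ATAH and 22.9 RPKM in ATAS, which gives a log2 ratio of 4.29 with an interval of 3.76 to 4.87. MARCO, a scavenger receptor of macrophages, had 11 reads in ATAH and 165 in ATAS. PADI1, a peptidylarginine deiminase, had 11 and 135 reads. MAMDC2 had 2.99 RPKM in ATAH, 24.0 RPKM in ATAS and 2.39 RPKM in ATAB, so that ATAS was the high library of the 3. BCL2L14, of the BCL2 family of apoptosis regulators, had 19 and 127 reads, the kinase gene NRK 38 and 198, and AMICA1, an adhesion molecule of leukocytes, 23 and 117. MMRN1, multimerin of platelets and endothelium, had 187 and 940 reads. IRF4, a transcription factor known in lymphocytes, macrophages and fat cells, had 14.6 RPKM in ATAH, 72.8 RPKM in ATAS and 4.79 RPKM in ATAB. SCG2, a granin of secretory granules, had 3.16 RPKM in ATAH and 14.2 RPKM in ATAS.

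**Figure D2:**
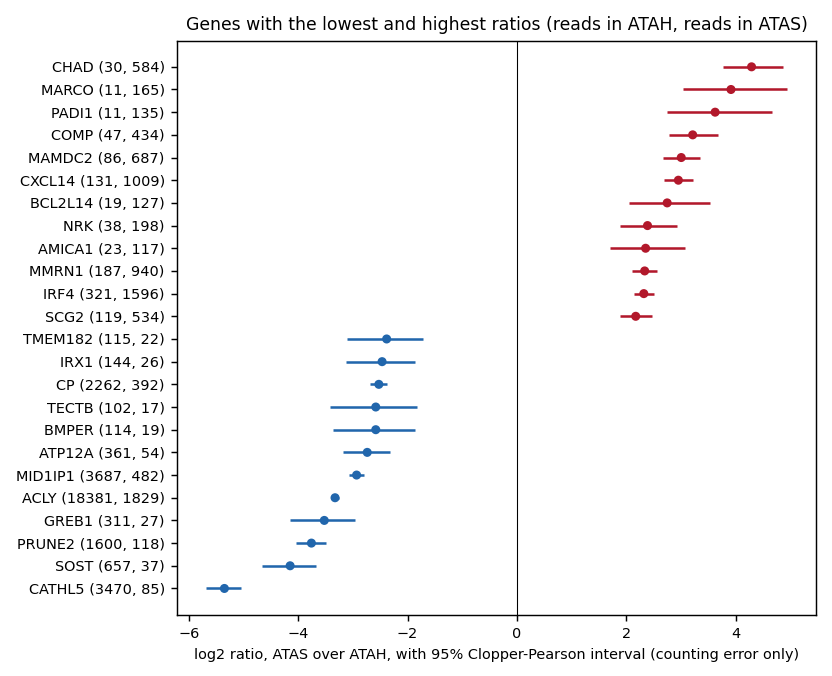
Points are the log2 ratios (horizontal axis) of the 12 gene symbols with the lowest and the 12 with the highest ratio among called clusters with 100 or more reads in 1 library, the sterol genes excepted, and bars are their 95% Clopper-Pearson intervals, which cover counting error only. Read counts in ATAH and ATAS stand beside each symbol on the vertical axis. The intervals are widest for genes with few reads in 1 library, such as MARCO and PADI1. No interval could reach 0, because the genes were chosen among called clusters.

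Sterol synthesis excepted, fatty acid synthesis had the lowest median ratio of all lists with more than 4 measured genes. Of 16 measured genes of fatty acid synthesis, desaturation and elongation, from 25 listed, 9 were called lower in ATAS, where the background share is 1.51%, and 0 higher, and the median log2 ratio was -1.12. The summed RPKM of these genes was 10114 in ATAH and 4297 in ATAS, against 12650 in ATAB. Of the genes of this list that the naming rule chose, only ACLY and MID1IP1 stayed called with an assumed coefficient of 0.2. ACLY, which cleaves citrate to cytosolic acetyl-CoA, showed 277 RPKM in ATAH, 27.6 RPKM in ATAS and 276 RPKM in ATAB. Its log2 ratio of -3.33, with an interval of -3.40 to -3.26, was lower than that of any other gene of this list. SLC25A1, the carrier that exports citrate from mitochondria, had 299.7 RPKM in ATAH and 90.6 RPKM in ATAS.

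ACSS2, which activates acetate, had 864 RPKM in ATAH and 255 RPKM in ATAS, and its log2 ratio was -1.76. MID1IP1 and THRSP encode related proteins that are known to promote lipogenesis. MID1IP1 had 131 RPKM in ATAH and 17.1 RPKM in ATAS, and THRSP had 1456 RPKM in ATAH and 597 RPKM in ATAS. MLXIPL, the carbohydrate-responsive factor ChREBP, had 34.8 RPKM and 15.9 RPKM in the same order. FASN, the fatty acid synthase, SCD, the delta-9 desaturase, and the elongase ELOVL5 had log2 ratios of -1.14, -1.11 and -1.33. ACLY, ACSS2 and SLC25A1, which supply acetyl-CoA or its citrate, thus had larger ratios in size than the synthase itself. The other genes of the list were not called, with the desaturase FADS2 at -0.79 and the elongase ELOVL1 at 0.03.

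Of 10 measured genes of enzymes that make NADPH, 2 were called lower, 3 with TMM or DESeq2 scaling, and 0 higher, and the median log2 ratio was -0.69. PGD, a dehydrogenase of the pentose phosphate pathway, had 286 RPKM in ATAH and 119 RPKM in ATAS, and ME1, the cytosolic malic enzyme, had 43.7 RPKM and 21.4 RPKM. TKT and TALDO1, of the sugar-exchanging branch, were not called, with log2 ratios of -0.79 and -0.71.

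The genes of triglyceride synthesis and the lipid droplet did not move together. Of 26 measured, 3 were called lower in ATAS and 1 higher, and the median log2 ratio was -0.12. GPAM and AGPAT2, which attach the first acyl chains to glycerol phosphate, had 166 and 1244 RPKM in ATAH and 59.3 and 382 RPKM in ATAS. DGAT2, which adds the last chain, had 2367 RPKM in ATAH and 1296 RPKM in ATAS, and its ratio of -0.87 was not called. CIDEA, a protein of the lipid droplet, had 164 RPKM in ATAH and 41.9 RPKM in ATAS, with 159 RPKM in ATAB. LPIN1, the phosphatidate phosphatase of the step between AGPAT2 and DGAT2, went the other way, with 118 RPKM in ATAH, 291 RPKM in ATAS and 33.7 RPKM in ATAB. PLIN1, the coat protein of the droplet, had 834 RPKM in ATAH and 1005 RPKM in ATAS and was not called.

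None of the 13 measured lipolysis genes was called, and none of the 9 genes of fatty acid uptake. An unadjusted binomial p under 0.05 was met by 11 of the lipolysis genes and 6 of the uptake genes. Other lists ranged widely, with 15 of 15 adipocyte markers and 13 of 27 T and NK cell genes, and the share over all clusters was not counted. LIPE, the hormone-sensitive lipase, had 767 RPKM in ATAH and 1024 RPKM in ATAS, and the fatty acid carrier CD36 had 1097 RPKM and 1111 RPKM. In fatty acid oxidation and ketone use, 1 of 32 genes was called lower, BDH1, a dehydrogenase of ketone bodies, with 12.1 RPKM in ATAH, 3.03 RPKM in ATAS and 52.4 RPKM in ATAB. CPT1A, the carnitine palmitoyltransferase of the mitochondrial gate, was called higher with 85 reads in ATAH and 170 in ATAS, on a cluster of 334 bases. Its log2 ratio, which just reached 1, was below the threshold with TMM and with DESeq2 scaling.

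The glucose carriers of fat showed opposite ratios. SLC2A4, the insulin-responsive carrier GLUT4, had 18.6 RPKM in ATAH, 5.54 RPKM in ATAS and 19.2 RPKM in ATAB. SLC2A3, the carrier GLUT3, had 33.7 RPKM in ATAH and 68.1 RPKM in ATAS, and its log2 ratio of 1.02 was below the threshold with TMM or DESeq2 scaling. The other 18 measured genes of glycolysis and glucose uptake were not called, and the median log2 ratio of the list was -0.28. None of the 11 measured genes of the respiratory chain and ATP synthase, from 74 listed, was called, and their log2 ratios all lay below 0, also with TMM, DESeq2 and ACTB scaling, with a median of -0.42. ATP5B, the catalytic beta subunit of ATP synthase, had 360 RPKM in ATAH and 281 RPKM in ATAS. In the citrate cycle, 0 of 13 genes were called, and SDHA, of succinate dehydrogenase, had a log2 ratio of 0.26.

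**Figure D3:**
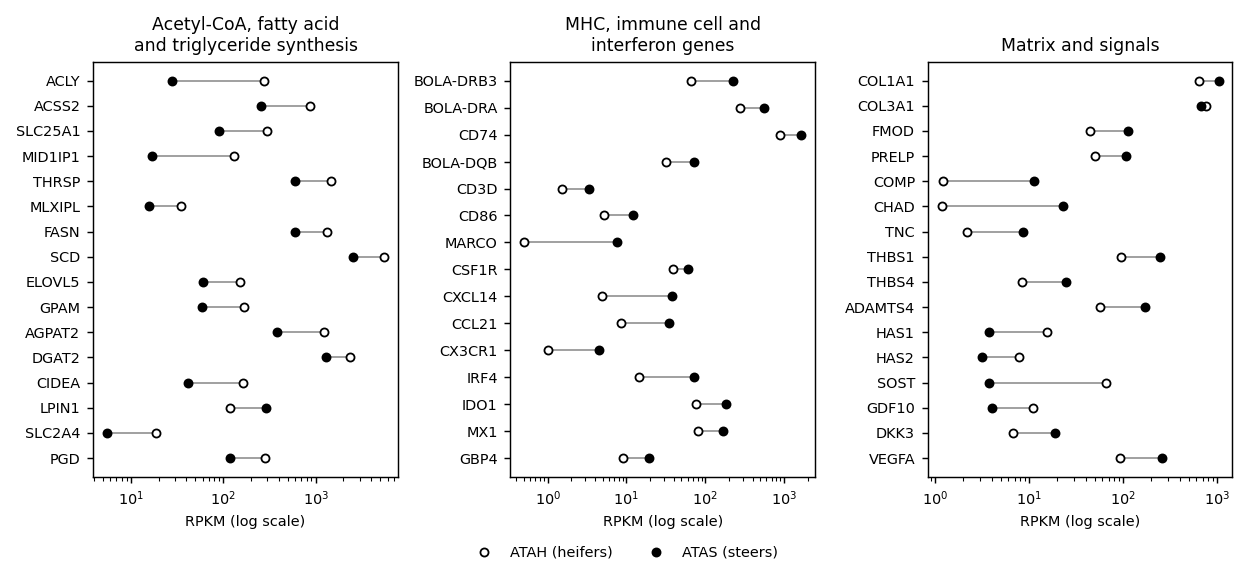
Open points are RPKM in ATAH and filled points RPKM in ATAS (horizontal axes, log scale) for a subset of the genes named in the text, most of them called, with 1 library per point and no replicate. The lipid and sugar genes drawn lie lower in ATAS except LPIN1, the immune genes drawn lie higher in ATAS, and the matrix and signal genes show both orders, with COL3A1 close to equal.

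Glutathione and oxidant defence held 4 genes called lower in ATAS and 0 higher among 27 measured, while the median log2 ratio was -0.03. GSTA3 and GSTT3, glutathione transferases, had 27.5 and 243 RPKM in ATAH and 7.38 and 82.1 RPKM in ATAS. NQO1, a quinone reductase, had 29.0 RPKM in ATAH, 10.2 RPKM in ATAS and 76.8 RPKM in ATAB. GSS, glutathione synthetase, had 21.1 RPKM in ATAH and 8.58 RPKM in ATAS. Glutathione transferases resemble each other and the tables hold uniquely matched reads alone, so both transferase values are uncertain. GPX3, the secreted glutathione peroxidase, had 385 RPKM in ATAH and 697 RPKM in ATAS and was not called.

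Of 47 measured genes of amino acid and one-carbon metabolism, 3 were called lower and 1 higher, with a median log2 ratio of -0.11. PSPH, the last enzyme of serine synthesis, had 19.8 RPKM in ATAH and 3.80 RPKM in ATAS. CKB, the brain-type creatine kinase, had 8025 reads in ATAH and 2661 in ATAS, and PYCR1, of proline synthesis, had 15.5 RPKM and 7.27 RPKM. The gene called higher was IDO1, which degrades tryptophan and is known to be induced by interferon gamma. IDO1 had 76.2 RPKM in ATAH, 183 RPKM in ATAS and 13.3 RPKM in ATAB.

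Antigen presentation was the list with the highest median ratio. Of 18 measured genes of the MHC and antigen presentation, from 29 listed, 8 were called higher in ATAS, where the background share is 2.47%, and 1 lower, and the median log2 ratio was 0.94. Most of the 8 encode class II molecules, which display peptides to helper T cells. With an assumed coefficient of 0.2, none of the genes of this list that the naming rule chose stayed called. BOLA-DRA, the alpha chain of the DR molecule, had 274 RPKM in ATAH, 558 RPKM in ATAS and 194 RPKM in ATAB, and its log2 ratio of 1.03 was below the threshold with TMM scaling. BOLA-DQA2, BOLA-DQA5 and BOLA-DQB, chains of the DQ molecule, had log2 ratios of 2.12, 1.44 and 1.16. BOLA-DQA2 had 82 reads in ATAH and 355 in ATAS, but 0 in ATAB. BOLA-DOA, a class II chain that modulates peptide loading, had 12 reads in ATAH and 73 in ATAS. CD74, the invariant chain of class II molecules, had 900 RPKM in ATAH and 1663 RPKM in ATAS, and its ratio of 0.89 was not called. CD1A and CD1E, of the lipid-presenting CD1 family, had 0.728 and 1.15 RPKM in ATAH and 1.91 and 3.86 RPKM in ATAS.

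These genes differ between animals and resemble each other, so that their reads can be split between clusters, and their values are uncertain. BOLA-DRB3, the beta chain of DR, shows how. Its cluster with more reads had 1321 reads in ATAH and 4589 in ATAS, or a log2 ratio of 1.80, while a further cluster of the same symbol had 2476 and 1609 reads, or a log2 ratio of -0.62. With the reads of both added, the log2 ratio was 0.71 and BOLA-DRB3 was not called. The coding sequences of the 2 clusters differ at 25 of 798 aligned bases, an identity of 96.9%. To show the kind of difference that assigns a read to a cluster, a stretch of 120 bases with 8 of these differences, more than the average of the coding sequence, is given 5′ to 3′ from the deposited UniGene sequences, bases 286 to 405 of the coding sequence in the cluster with more reads and 283 to 402 in the further cluster, with the bases that differ in capitals.
BOLA-DRB3, cluster with more reads: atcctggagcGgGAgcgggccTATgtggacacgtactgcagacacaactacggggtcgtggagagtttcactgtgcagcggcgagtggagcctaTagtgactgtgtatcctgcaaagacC
BOLA-DRB3, further cluster: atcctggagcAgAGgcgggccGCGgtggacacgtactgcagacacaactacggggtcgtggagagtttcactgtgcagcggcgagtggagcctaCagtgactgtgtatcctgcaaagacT
Class I clusters were called in both directions. The cluster of BOLA, a non-classical class I antigen, had 2991 reads in ATAH and 1226 in ATAS, while a further cluster of that symbol had 297 and 425 reads and a log2 ratio of 0.52. Of clusters with no symbol, which stand outside the list, a non-classical MHC class I antigen had 680 reads in ATAH and 1541 in ATAS, and an MHC class I heavy chain had 140 RPKM and 312 RPKM, and both were called higher.

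Ratios of macrophage, T and NK, and mast cell markers lay mostly above 0, though few of these genes were called. The median log2 ratio of all gene symbols was itself 0.13. In bulk tissue, fewer cells of a type and less RNA per cell cannot be told apart. Of 30 measured macrophage and myeloid genes, 5 were called higher and 0 lower, 28 had a ratio above 0, and the median log2 ratio was 0.64. Beside MARCO, these were CLEC7A, a receptor for fungal glucans, with 27 and 82 reads, CD86, a costimulator of T cells, with 233 and 551 reads, TREM2, a lipid-sensing receptor, with 62 and 129 reads, and the integrin ITGAM with 325 and 654 reads, whose call was lost with TMM and DESeq2 scaling. The defining markers CD14, CD68, CD163 and CSF1R were not called, and their summed level was 189.5 RPKM in ATAH and 290 RPKM in ATAS. Of 27 measured T and NK cell genes, 2 were called higher and 0 lower, and CD3D, of the T cell receptor complex, had 35 and 79 reads. The median of this list was 0.56, and the 4 defining T cell markers summed to 9.40 RPKM in ATAH and 15.7 RPKM in ATAS. The list of immunoglobulins, B and plasma cells held 1 gene called lower in ATAS and 0 higher among 11, and its median was 0.09. That gene was SDC1, a syndecan carried by plasma cells and epithelia, with 10.2 RPKM in ATAH and 4.99 RPKM in ATAS. The defining B cell markers measured, CD79A and MS4A1, had log2 ratios above 0 and were not called, and summed to 1.02 RPKM in ATAH and 1.81 RPKM in ATAS. Mast cell and eosinophil genes, 6 measured, had 0 calls, and KIT, a receptor of mast cells, had a log2 ratio of 0.74.

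Genes of cytokines, chemokines and the interferon response also lay mostly higher in ATAS. Of 45 measured cytokines, chemokines and receptors, 7 were called higher in ATAS and 0 lower, with a median log2 ratio of 0.46. CXCL14, a chemokine, had 4.92 RPKM in ATAH, 38.0 RPKM in ATAS and 35.0 RPKM in ATAB, so that ATAH was the low library. CCL21, the chemokine of lymphatic vessels and lymph nodes, had 8.53 RPKM in ATAH, 34.5 RPKM in ATAS and 28.0 RPKM in ATAB, the same order. CX3CR1, the fractalkine receptor, had 49 and 216 reads, and IL6R, the interleukin-6 receptor, had 496 and 1119 reads. Of 19 measured interferon response genes, 5 were called higher and 0 lower, and the median was 0.69. With an assumed coefficient of 0.2, none of those that the naming rule chose stayed called. ISG20, an exonuclease, had 3.01 RPKM in ATAH, 10.6 RPKM in ATAS and 0.553 RPKM in ATAB. GBP4 and GBP5, guanylate-binding proteins, OAS2, a sensor of double-stranded RNA, and MX1, an antiviral GTPase, had log2 ratios of 1.10, 1.08, 1.08 and 1.03, of which that of MX1 was below the threshold with TMM scaling. All 19 ratios were above 0, of which IFITM1 at 0.02 was below 0 with TMM or DESeq2 scaling.

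In complement and coagulation, 4 of 39 measured genes were called higher and 2 lower, with a median log2 ratio of 0.31, while TMM scaling left 2 called higher and DESeq2 scaling 3. PLAUR, the urokinase receptor, had a log2 ratio of 1.02 that was below the threshold with both. A2M, a protease inhibitor of plasma, had 390 RPKM in ATAH, 803 RPKM in ATAS and 382 RPKM in ATAB, and its ratio of 1.04 was below the threshold with TMM scaling. CD55, which restrains complement, had 92 reads in ATAH and 280 in ATAS. FGG, the gamma chain of fibrinogen, was lower with 614 and 296 reads, and FGB, its beta chain, had 21 reads in ATAH and 0 in ATAS. With 0 read as 3 reads FGB was 6.98-fold lower in ATAS, and the upper edge of its log2 interval was -2.38. Among 18 endothelial markers, 2 were called higher and 0 lower, and the median was 0.38. PLVAP, of the diaphragms of capillaries, had 50.3 RPKM in ATAH and 104 RPKM in ATAS, below the threshold with TMM scaling, and PROX1, the factor of lymphatic endothelium, had 14 and 51 reads. The defining markers PECAM1, CDH5 and VWF were not called and summed to 312 RPKM in ATAH and 401 RPKM in ATAS. VEGFA, the growth factor of vessels, had 93.5 RPKM in ATAH, 257 RPKM in ATAS and 40.4 RPKM in ATAB, while 0 of the other 16 measured hypoxia response genes were called.

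The calls among matrix genes did not include the main fibrillar collagens. Of 71 measured collagens and matrix genes, 13 were called higher in ATAS and 1 lower, and the median log2 ratio was 0.42. The single gene called lower was SOST. COL1A1 and COL3A1, the chains of the main fibrils, had 639 and 766 RPKM in ATAH and 1034 and 676 RPKM in ATAS, and neither was called. The members with the highest ratios are known from cartilage. Beside CHAD, COMP had 47 reads in ATAH and 434 in ATAS, CILP2 had 2 and 48 reads, COL11A1 7 and 64, and COL11A2 12 and 49. COL2A1 and ACAN, the main collagen and proteoglycan of cartilage, had 14 and 11 reads in ATAH and 10 and 20 reads in ATAS and were not called. PRG4, the lubricin of joints, had a log2 ratio of -0.36. The separate list of mesothelial, synovial and cartilage markers had 2 of 12 measured genes called higher, CHAD and COMP, and 1 lower, SOST, and its median log2 ratio was below 0, at -0.36.

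Small proteoglycans of collagen fibrils were among the genes called higher. FMOD had 43.9 RPKM in ATAH and 113 RPKM in ATAS, PRELP 50.7 and 106 RPKM, PODN 72.5 and 182 RPKM, and KERA 1.39 and 3.83 RPKM. DCN, the most common of them, had a log2 ratio of 0.61 and was not called. THBS1, THBS4 and TNC, matrix proteins that modulate adhesion, had log2 ratios of 1.38, 1.57 and 1.97. THBS1 had 94.6 RPKM in ATAH, 247 RPKM in ATAS and 48.0 RPKM in ATAB.

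Among 39 measured matrix enzymes and inhibitors, 3 were called higher and 2 lower. ADAMTS4, an aggrecan-cleaving protease, had 56.4 RPKM in ATAH, 169 RPKM in ATAS and 13.5 RPKM in ATAB, and ADAMTS5, of the same family, had 11.2 RPKM in ATAH and 27.4 RPKM in ATAS. P4HA3, a prolyl hydroxylase of collagen, had 19 and 96 reads. HAS1 and HAS2, which make hyaluronan, were both lower, with 125 and 359 reads in ATAH and 30 and 144 reads in ATAS. The matrix metalloproteinases and tissue inhibitors measured were not called, MMP2 with a log2 ratio of 0.32 among them.

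Signals of the Wnt, BMP, TGF-beta and hedgehog families were called in both directions, 6 higher and 5 lower of 66 measured, with a median log2 ratio of 0.32. The genes called lower were SOST, DKK1, which like SOST inhibits Wnt receptors, with 51 reads in ATAH and 8 in ATAS, BMPER, which binds BMPs, with 2.11 and 0.353 RPKM, GDF10, of the TGF-beta family, with 430 and 157 reads, and the receptor FZD9 with 99 and 48 reads. RSPO1, which strengthens Wnt signals, had 0 reads in ATAH and 24 in ATAS. With 0 read as 3 reads it was 8.02-fold higher in ATAS, and the lower edge of its log2 interval was 2.59. DKK2 and DKK3, relatives of DKK1, had log2 ratios of 1.25 and 1.46. TGFBI and LTBP2, matrix proteins tied to TGF-beta, had 2304 and 673 reads in ATAH and 5814 and 1367 reads in ATAS, and LTBP2 was below the threshold with TMM scaling. GLI1, a target of hedgehog signalling, had 59 and 126 reads.

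Of 12 measured genes of sex steroid receptors and responses, GREB1 alone was called. ESR1, the estrogen receptor, had 6.97 RPKM in ATAH and 6.13 RPKM in ATAS, and the interval of its log2 ratio ran from -0.41 to 0.04. A further cluster of ESR1 had 167 and 203 reads, a log2 ratio of 0.28, and was not called either. PGR, the progesterone receptor, had 15 and 5 reads and was not called. None of the 26 measured genes of glucocorticoid response and steroid metabolism was called, and 1 was called lower with TMM and with DESeq2 scaling. An unadjusted binomial p under 0.05 was met by 21 of them, as by 11 of 13 lipolysis genes and 13 of 27 T and NK cell genes. The share over all clusters was not counted. GLUL, glutamine synthetase, had a log2 ratio of 0.46.

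Immediate-early genes, which respond within minutes to stimuli and to tissue handling, had 2 called higher and 0 lower of 25, with a median of 0.31. EGR2 had 65 and 152 reads and IER3 364 and 752 reads, IER3 being below the threshold with TMM scaling, and the part of handling in these values was not tested. In the circadian clock, NPAS2 was called higher with 46 and 110 reads, and the other 12 genes were not called. GRB10, an adaptor that binds the insulin receptor, had 15.7 RPKM in ATAH and 32.2 RPKM in ATAS, the single call among 20 genes of insulin and IGF signalling, and it was lost with TMM scaling. Of 28 genes of the cell cycle, AURKA and CCND2 were called higher, with 37 and 129 reads in ATAH and 95 and 274 reads in ATAS. None of the 26 heat shock and unfolded protein genes was called, and HSP90AB1 had a log2 ratio of -0.05. In sterol uptake and export, 1 of 12 genes was called higher and 1 lower, and ABCA1, which exports cholesterol, was the higher with 7.47 RPKM in ATAH and 18.0 RPKM in ATAS.

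The labelled tissue was checked against its markers. The 7 defining adipocyte markers ADIPOQ, LEP, PLIN1, LIPE, CIDEC, LPL and CFD summed to 5217 RPKM in ATAH and 5628 RPKM in ATAS, with log2 ratios from -0.74 for LPL to 0.42 for LIPE and 0 calls. Smooth muscle markers summed to 299.8 RPKM in ATAH and 303 RPKM in ATAS, and nerve markers to 239 and 226 RPKM. Of the defining skeletal muscle markers, ACTA1, MYH2 and CKM were measured and summed to 4.83 RPKM in ATAH and 2.23 RPKM in ATAS, with ACTA1 called lower at 93 and 35 reads, MYH2 called higher at 10 and 40 reads, and PYGM, the muscle phosphorylase of the wider list, called lower at 136 and 50 reads. KRT14, KRT8 and CDH1 of the skin and epithelial markers summed to 4.05 RPKM and 2.78 RPKM. In the wider epithelial list KRT19 was lower with 20.3 RPKM in ATAH and 4.13 RPKM in ATAS, against 127 RPKM in ATAB, and DSP was higher with 10 and 46 reads. UCHL1, an enzyme of neurons, was lower with 779 and 180 reads, and L1CAM, an adhesion molecule of nerves, was higher with 90 and 210 reads. HBG2, a hemoglobin chain of the fetus, had 16 reads in ATAH and 0 in ATAS. Of 8 measured genes of thermogenic fat, 2 were called lower, CIDEA and COX8B, a subunit known from brown fat and muscle, with 169 and 38 reads for the latter. None was called higher, yet 5 of the others had a ratio above 0 and the list median was 0.60. PPARGC1A, a coactivator of mitochondrial genes, had 132 and 222 reads and ADRB3, the beta-adrenergic receptor of fat, 4 and 22 reads, and neither was called. The part of these other cell types in the differences above was not tested.

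**Figure D4:**
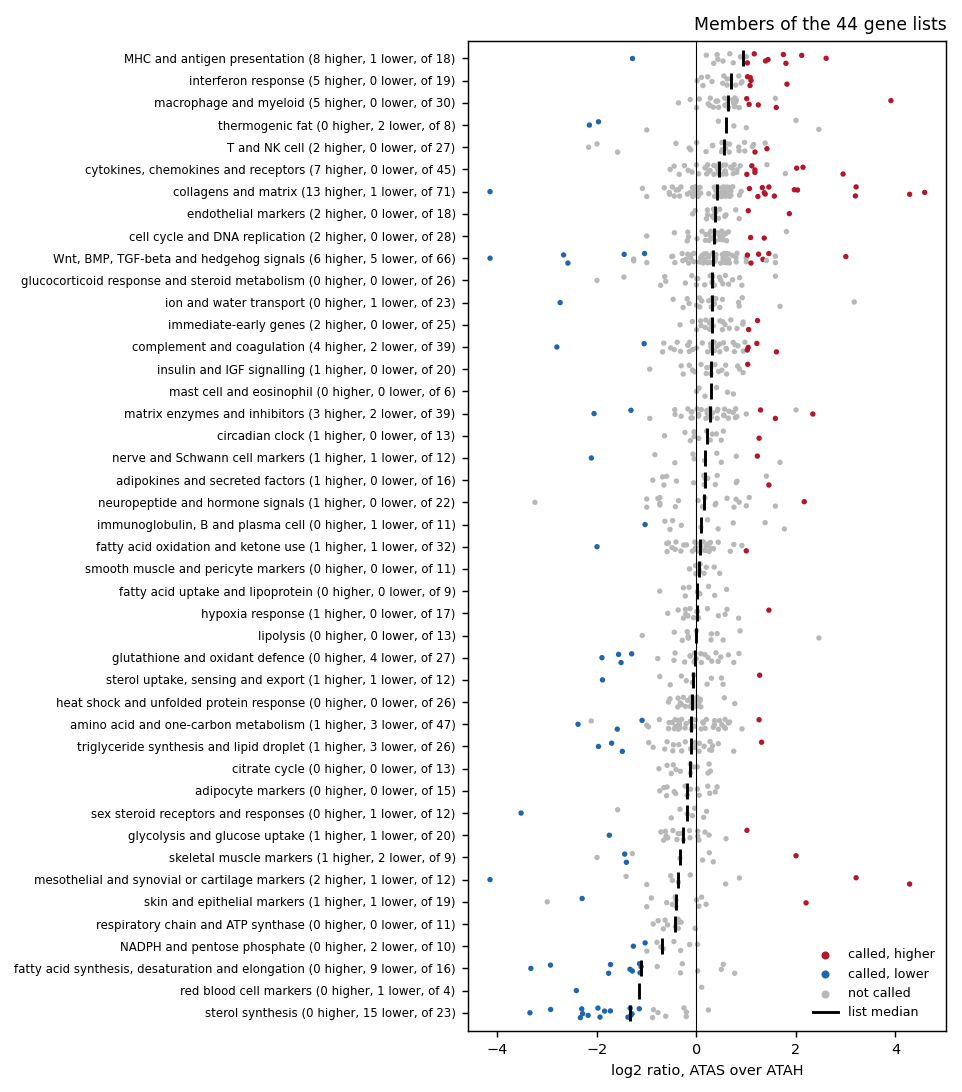
Each row is a gene list and each point the log2 ratio of a member (horizontal axis), red where called higher in ATAS, blue where called lower and grey where not called, with the list median as a black bar. Lists are ordered by that median, from -1.33 for sterol synthesis to 0.94 for the MHC and antigen presentation, and the row labels give the calls of all measured members.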

How the data were processed

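RNA of subcutaneous fat was sequenced on an Illumina instrument, with 1 library of 5 pooled animals per group. The authors aligned the cleaned reads with SOAPaligner and deposited, per the file headers, the counts of uniquely matched reads on 36373 UniGene clusters, which hold no strand. They also deposited the RPKM made from those counts, and the covered length of each cluster as a percentage. Positions in the genome were not used here.

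Here the counts of ATAH and ATAS were joined by cluster, and the other 2 libraries entered no test. Each cluster with a read in either library was tested with an exact two-sided binomial test given both library totals (scipy 1.17.1), with Benjamini-Hochberg adjustment over 34046 clusters. A call required an FDR no higher than 0.001 together with a log2 ratio no smaller in size than 1. The test was tried on simulated counts with counting error only, which hold no spread between animals. A count of 0 was read as 3 reads, which is 0.192 RPKM in ATAH and 0.193 RPKM in ATAS on a sequence of 1 kb. Ratios carry 95% Clopper-Pearson intervals, which cover counting error only.

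Symbols came from an accession matched to RefSeq gene names (3339 symbols), from the sequence description (1131 by current symbol, 116 by an older symbol and 206 by a symbol given there alone) or from a description read by hand (727). Hand-read names lean towards called clusters, so the background shares use all clusters with a symbol or a description. The list members hold such names too, which can raise their shares of calls: 84 of 549 list symbols read by hand were called (15.3%), against 45 of 367 others (12.3%). Where a symbol had several clusters, as 24 did, the cluster with the most reads was used. The 44 lists of 1463 symbols, their members and the hand-read names were chosen with earlier results of these data known. Named were the 12 lowest and 12 highest ratios among called clusters with 100 or more reads in 1 library, sterol synthesis excepted, up to 4 called genes per list or otherwise the member with the most reads, and the 10 called genes with the largest RPKM difference. Further list members were named where a list did not move together. Some genes that the rule names are not reported here. Lists are described by counts and medians, with no test. Alternatives were TMM factors (edgeR 4.0.16), DESeq2 1.42.0 size factors, scaling to ACTB, a minimum of 10 reads, edgeR's exact test with assumed biological coefficients of variation of 0.2 and 0.4, summed clusters of a symbol, and a log2 threshold of 2.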

Additional observations from a re-analysis of the deposited data

How the results depend on the processing

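Of 1048 calls over all clusters, the genes of X inactivation and of the Y chromosome included, 51.7% were higher in ATAS, and TMM factors gave 43.4% higher and DESeq2 size factors 46.5%, while the number of calls stayed within 1.5 times with these, with ACTB scaling and with a minimum of 10 reads. These scalings moved the median log2 ratio of all clusters by -0.051, -0.024 and 0.02 for TMM, DESeq2 and ACTB. With assumed biological coefficients of variation of 0.2 and 0.4, 116 and 12 clusters were called, 37.9% and 41.7% of them higher, and 22 and 0 of the list members, against 129. Tested on summed clusters of a symbol, where fewer features are tested, 396 were called, 61.6% higher. At a log2 threshold of 2, 341 clusters were called, 46.6% higher, with 36 list members. Of the 101 called genes that the naming rule chose, 94 remained called with TMM, 99 with DESeq2, 101 with ACTB and with the minimum of 10 reads, 100 with summed clusters, 30 and 1 with the assumed coefficients, and 45 at the threshold of 2. The log2 ratio of CD36 turned to -0.0321 with TMM and -0.00494 with DESeq2, and the log2 ratio of MCAM to 0.00927 with ACTB. The medians of lipolysis, fatty acid uptake and hypoxia response also changed sign with TMM and DESeq2. No paired analysis was possible because each group had 1 library, and for the same reason no library could be left out. Genes with few reads carry wide intervals.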

Other observations

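The genes of these paragraphs lie outside the naming rule and were chosen after their values were seen. TNMD, the tendon protein tenomodulin, had 1 read in ATAH and 38 in ATAS, and MKX, a homeobox factor of tendon, had 6 and 50 reads, and no list of tendon genes was counted. ANGPTL7, a secreted protein known from the cornea, had 9 and 85 reads. MYOC, the glycoprotein myocilin, had 107 RPKM in ATAH, 247 RPKM in ATAS and 95.8 RPKM in ATAB. NRAP, a muscle protein outside the marker list, had 20 and 61 reads. Of genes known from immune cells, MERTK, a receptor for dying cells on macrophages, had 331 and 865 reads in this bulk tissue. SPI1, a myeloid transcription factor, had 255 and 544 reads, and ZBP1, a sensor of nucleic acids, had 179 and 536 reads. HIF3A, of the hypoxia-inducible factors, had 1566 reads in ATAH and 4021 in ATAS.

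Lower in ATAS were PCYT2, of phosphatidylethanolamine synthesis, with 67.5 RPKM in ATAH and 14.2 RPKM in ATAS, and AACS, which activates acetoacetate in the cytosol, with 39.4 and 15.0 RPKM. CYP1A1, the cytochrome induced through the aryl hydrocarbon receptor, had 25.8 RPKM in ATAH and 6.11 RPKM in ATAS. SRXN1 and MSRB1, which repair oxidised cysteine and methionine, had 29.0 and 293 RPKM in ATAH and 11.2 and 112 RPKM in ATAS. FGF10, a growth factor of the fat stroma, had 745 and 349 reads.

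Some called clusters have a description but no symbol. A cluster described as similar to melanoma antigen family A 10 had 130 reads in ATAH and 2 in ATAS. A cluster described as similar to CD1b3, of the CD1 family, had 1 read in ATAH and 136 in ATAS. A cluster like the elongation factor EEF1A1 had 93 and 3300 reads, and this gene has many near-identical copies. Clusters of the T cell receptor gamma C3 and C4 regions had 24 and 12 reads in ATAH and 68 and 56 reads in ATAS, and the delta chain had 85 and 184 reads. The constant regions of IgG2a and IgG1 went the other way, with 272 and 227 reads in ATAH and 69 and 72 reads in ATAS. Reads of receptor and immunoglobulin segments can be split between near-identical sequences, so these values are uncertain.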
